A study of Homo sapiens with 17 samples.

Results

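The genes described here are 40 members of the NRF2, glutathione, thioredoxin, iron and ferroptosis systems, followed through RNA-seq of 786-O cells in which HIF2a or USP37 was targeted with CRISPR guides. They were taken by gene symbol from the deposited expression table, which lists 27315 genes, and all 40 symbols were found there. Of these, 38 were among the 12484 genes tested, and GPX2 and SLC40A1 fell below the filter on low values. 786-O is an established human line of clear cell renal carcinoma. It lacks functional VHL, so HIF alpha proteins escape the degradation that VHL directs. All groups carried lentiviral Cas9 with a single guide RNA in pLenti CRISPR-V2 puro and were kept under antibiotic selection, with pools or clones not specified in the labels. The HIF2a experiment held 3 libraries each of HIF2a_sg4, HIF2a_sg6 and a scrambled-guide control, HIF2a_sgscr. The USP37 experiment held 3 libraries each of USP37_sg3 and USP37_sg9, and 2 of its own scrambled-guide control, USP37_sgscr, numbered 2 and 3. The comparisons ask which of these transcripts changed when HIF2a, or the deubiquitinase USP37, was targeted.

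NRF2, encoded by NFE2L2, is a transcription factor that is held low by the ubiquitin ligase adaptor KEAP1 and that accumulates when reactive molecules modify KEAP1. It binds antioxidant response elements and drives genes for glutathione synthesis, thioredoxin recycling, NADPH supply, quinone reduction and haem breakdown. Ferroptosis is a form of cell death caused by iron-dependent peroxidation of membrane phospholipids. ACSL4 and LPCAT3 place the oxidisable fatty acids into those lipids, and GPX4 and AIFM2 (FSP1) remove or block the peroxides. Iron enters through the transferrin receptor TFRC, is stored in ferritin (FTH1 and FTL), is released from ferritin through NCOA4 and leaves through ferroportin (SLC40A1). Clear cell renal carcinoma lines are known for high sensitivity to loss of GPX4 activity.

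Promoter letters are shown for 6 members on which the results below turn, because they carry the core of the element that NRF2 binds or of the one that HIF binds. The antioxidant core was searched as TGACNNNGC and the hypoxia core as ACGTG, on both strands. The window was the 250 bases before the first start site listed for each gene in RefSeq (GRCh38.p14), and any other start site was not searched. The antioxidant core was in 8 of the 32 members with a window (25%) and in 11% of all 27305 windows. The hypoxia core was in 7 of 32 members (21.9%) and in 18.7% of all windows. The stretches below run 5′ to 3′ on the gene's strand and end before the start site, with the matched letters in capitals.
GSTP1: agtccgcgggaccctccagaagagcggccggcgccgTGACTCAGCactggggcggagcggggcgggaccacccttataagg
ME1: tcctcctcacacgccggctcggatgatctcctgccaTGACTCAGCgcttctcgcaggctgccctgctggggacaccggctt
GCLM: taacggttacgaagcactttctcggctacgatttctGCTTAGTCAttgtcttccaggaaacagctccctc
TXNRD1: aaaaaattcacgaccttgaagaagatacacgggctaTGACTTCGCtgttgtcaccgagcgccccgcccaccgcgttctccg
TFRC: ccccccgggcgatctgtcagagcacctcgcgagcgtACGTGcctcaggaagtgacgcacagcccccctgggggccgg
MGST1: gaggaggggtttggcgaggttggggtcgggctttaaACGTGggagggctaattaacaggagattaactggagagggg
They lie at chr11:67583710-67583790 (plus strand), chr6:83431144-83431224 (minus), chr1:93909431-93909500 (minus), chr12:104215644-104215724 (plus), chr3:196082138-196082214 (minus) and chr12:16347539-16347615 (plus). The capitals begin 66, 137, 34, 99, 88 and 70 bases before the start, in that order. GSTP1 and ME1 hold the same 9 letters, which include the AP-1 motif TGACTCA, and in GCLM the core stands on the opposite strand. A match describes letters only, since no binding was measured.

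Levels are given as deposited, variance-stabilised and batch-corrected by the authors, on a log2 scale. This scale shrinks the differences of low genes, and it takes no account of gene length, so levels are not compared between genes. EPAS1, which encodes HIF2a, was at -1.97 with its guides and USP37 at -1.004 with its own, as log2 differences from the control (limma adjusted p = 2.21e-12 and 1.22e-05). EPAS1 was also lower with the USP37 guides (-0.72, limma adjusted p = 6.6e-05), and USP37 with the HIF2a guides (-0.44, limma adjusted p = 0.00903). The latter missed the threshold without control library 1 or 2 (adjusted p = 0.0625 and 0.0657) or the 3 libraries set aside below (0.156). All 7 markers of a renal epithelial line, such as PAX8 and KRT8, passed the filter. So did 1 of 6 markers of 293T packaging cells (NEFL), 1 of 6 of leukocytes (CD68), 0 of 4 of endothelium and 2 of 5 of fibroblasts (COL1A1 and LUM). The summed 293T list, on the log2 scale, ran from 11.76 to 12.01 in HIF2a_sgscr and from 11.01 to 11.38 with the HIF2a guides, and from 11.56 to 11.59 in USP37_sgscr and from 10.76 to 11.04 with the USP37 guides. The fibroblast sum ran from 8.94 to 9.06 in HIF2a_sgscr against 8.31 to 8.51 with the guides, and the endothelial sum, with no marker above the filter, from 7.34 to 7.47 against 7.63 to 7.82. The leukocyte sum ran from 10.15 to 10.24 in USP37_sgscr against 10.31 to 10.67 with the guides. The 293T sum rests mainly on NEFL and the leukocyte sum mainly on CD68, since the other markers of those lists fell below the filter. Each of those sums therefore mostly follows a single gene and does not show that a cell type changed. The part of the marker lists in the results below was not tested. Libraries 2 and 3 of sg6 lay farthest from their group mates, with a median absolute difference of 0.198 and 0.197 against 0.107 to 0.156 for the others. Every comparison was repeated without both and control library 2 of that experiment, which itself lay within that range at 0.155. Without these 3 set-aside libraries sg6 is a single library, whose spread is taken from the other groups. That library, sg6 library 1, had the lowest of the array weights that limma gave to the libraries. Its weight was 0.104, against 0.513 and 0.559 for sg6 libraries 2 and 3. Whether replicates came from separate cultures is not in the labels. The p-values therefore measure the spread among these libraries only, and that spread may be technical.

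With the HIF2a guides, 8 members rose and 7 fell, at a Benjamini-Hochberg adjusted p under 0.05 in limma. These 15 calls are 39.5% of the 38 tested members, against 30.6% called among all tested genes (16.1% higher and 14.5% lower). GSTP1 fell most (-2.83) and ACSL4 rose most (1.11), both as log2 differences, and the median over members was -0.04 against -0.0045 over all genes. Each guide alone raised 6 members (MGST1, CAT, HMOX1, ACSL4, SLC11A2 and SAT1) and lowered 3 (GCLM, TXN and GSTP1), against 9.04% and 7.48% of all genes raised or lowered by both. KEAP1, SRXN1, BLVRB, OSGIN1, FTH1 and FTL were called in the mean but not with both guides separately. ME1 was called in opposite directions by the guides. By guide, sg4 gave 6 higher and 12 lower (47.4%, against 25.3% of all genes, 13.2% higher and 12.1% lower). The sg6 guide gave 13 higher and 4 lower (44.7%, against 29% of all genes, 15.2% higher and 13.8% lower). The sg6 count of 17 was 8 without the 3 set-aside libraries, where sg6 has 1 library, and 11 without control library 1. Of the 9 members called in the same direction by both guides, CAT, ACSL4, SAT1 and GSTP1 kept both calls in each of the 26 alternatives. The TXN call with sg4 missed the threshold in 17 of them, among them no filter, the stricter filter, the replicate block and each experiment fitted alone. The SLC11A2 call with sg6 missed it in 7, the GCLM calls in 3 each with sg4 and sg6, the MGST1 call with sg6 in 2 and the HMOX1 call with sg6 in 1. In 5 members all 6 guide libraries lay above the 3 controls and in 4 all lay below (13.1% and 12.1% of all genes).

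With the USP37 guides, 8 members rose and 12 fell, which is 52.6% of those tested against 44.3% of all genes (22.4% higher and 21.9% lower). TFRC rose most (1.10) and SAT1 fell most (-0.76), and the median over members was -0.03 against 0.0060 over all genes. Each guide alone raised TXN, PGD and TFRC (3 members) and lowered NFE2L2, GSR, MGST1, CAT, TKT, ACSL4, FTH1, FTL and SAT1 (9 members), against 11.4% and 13.4% of all genes. GSS, SRXN1, PRDX1, GPX1, HMOX1, GPX4, LPCAT3 and NCOA4 were called in the mean but not with both guides separately. All 6 guide libraries lay above both controls in 9 members and below them in 12 (20% and 21.2% of all genes). By guide, sg3 gave 4 higher and 12 lower (42.1%, against 35.2% of all genes, 16.8% higher and 18.4% lower). The sg9 guide gave 13 higher and 10 lower (60.5%, against 47.8% of all genes, 24.6% higher and 23.2% lower). Of the 12 members called in the same direction by both guides, TFRC, CAT, TKT, FTH1, FTL and SAT1 kept both calls in each of the 26 alternatives. The others missed the threshold for 1 or both guides in 1 to 3 alternatives each. With only 2 control libraries the counts leaned on each: the 20 calls fell to 12 without control library 2, and the 16 calls of sg3 fell to 10 without control library 3.

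In the test of the difference between the effects, 20 members were called, 11 positive and 9 negative, which is 52.6% against 38.6% of all genes (19.6% positive and 19% negative). The count was 12 without library 2 of the USP37 control, and the split was 7 positive and 11 negative after chromosome medians were removed. In 7 members the effects were called in opposite directions, and the share of all genes called so was not computed. With 30.6% of all genes called with the HIF2a guides and 44.3% with the USP37 guides, this count is not read as a result about the members. MGST1, CAT, ACSL4, FTH1 and SAT1 were higher with the HIF2a guides and lower with the USP37 guides, and TXN and SRXN1 were the reverse. HMOX1 rose and FTL fell in the mean of the guides in both experiments. HMOX1 was not called with sg3 alone, nor FTL with sg6 alone. Likewise FTH1 was not called with both HIF2a guides separately, nor SRXN1 with both guides separately in either experiment. The scrambled controls themselves differed at 17 members, 13 higher and 4 lower in USP37_sgscr than in HIF2a_sgscr (44.7% against 40.5% of all genes, 20.1% higher and 20.4% lower), and the experiment and its control cannot be told apart. That difference enters the test between the effects with the opposite sign, so it is printed beside each gene it touches.

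**Figure D1:**
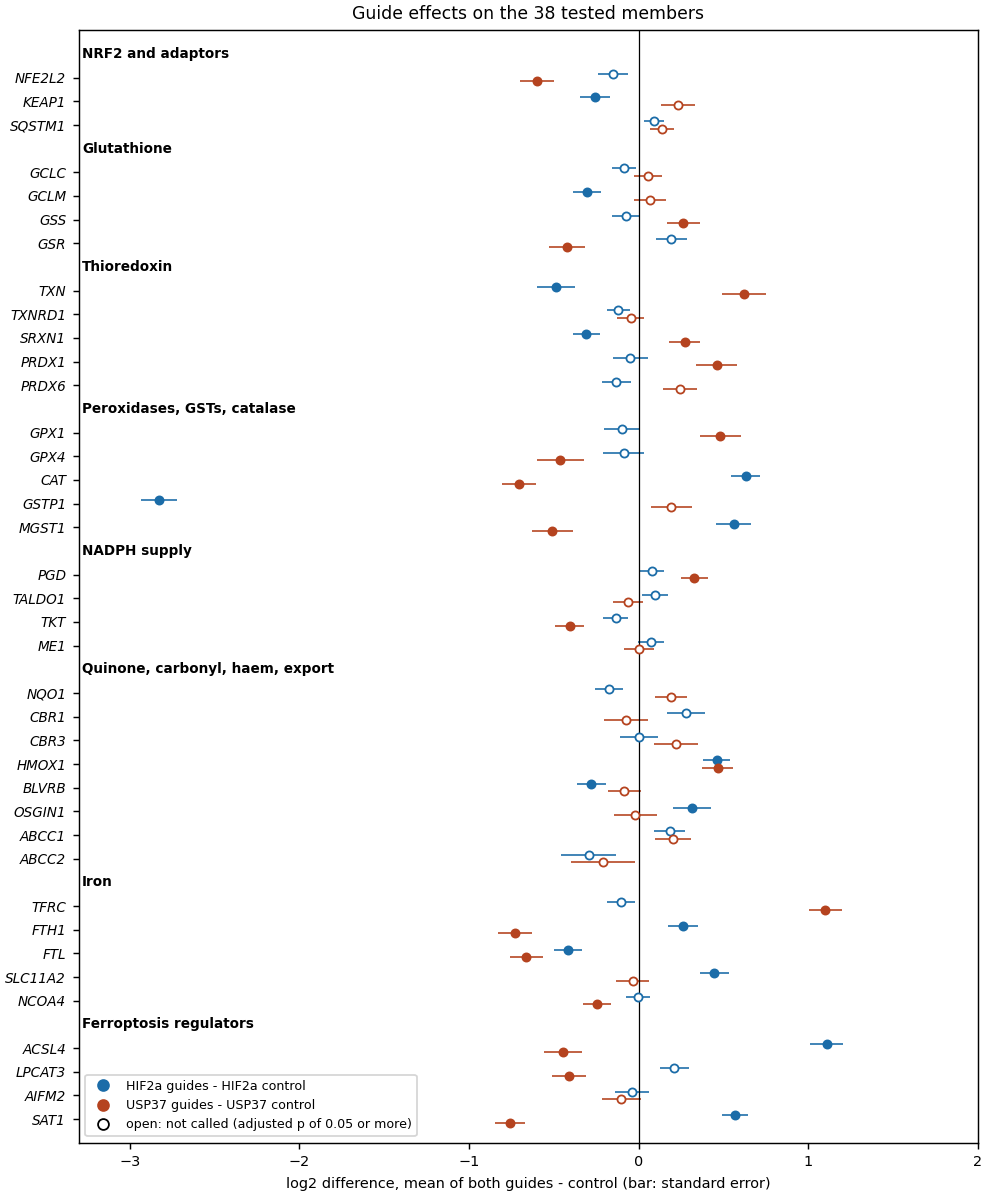
Log2 difference between the mean of both guides and the scrambled control for the 38 tested members, ordered by role, with HIF2a guides in blue, USP37 guides in red, bars for the standard error and open circles for members not called. GSTP1 stands alone at -2.83 with the HIF2a guides, and TFRC at 1.10 is the farthest rise with the USP37 guides.

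NFE2L2 mRNA, which encodes NRF2 itself, was lower with the USP37 guides. Its value was 11.28 and 11.46 in the control libraries, 11.08, 10.94 and 10.74 with sg3 and 10.81, 10.47 and 10.58 with sg9, so every guide library lay below both controls. It fell by 0.60 (SE 0.10, limma adjusted p = 8.05e-05). In the HIF2a experiment it was 10.69, 10.74 and 10.53 in the control libraries, 10.45, 10.39 and 10.38 with sg4 and 10.60, 10.52 and 10.66 with sg6, where sg6 overlapped the controls and no change was called (-0.15, SE 0.09, limma adjusted p = 0.21). USP37_sgscr was higher than HIF2a_sgscr by 0.72 (limma adjusted p = 4.55e-05), and the HIF2a controls lay within the range of the USP37 guide libraries.

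KEAP1, the adaptor that targets NRF2 for degradation, stood at 10.44, 10.47 and 10.58 in the control libraries, 10.17, 10.12 and 10.18 with sg4 and 10.30, 10.58 and 10.09 with sg6. The sg4 libraries were all below the controls and the sg6 libraries spread across them. KEAP1 was called lower with sg4 alone, which missed the threshold in 2 of 26 alternatives. The mean of the guides was called lower at -0.26 (SE 0.09, limma adjusted p = 0.0283). It failed the threshold without control library 1, 2 or 3 (adjusted p = 0.0522, 0.053 and 0.127), sg4 library 2 (0.0549), sg6 library 1 (0.05) or 3 (0.0556), and with each experiment fitted alone (0.0656). In the USP37 experiment KEAP1 was at 10.20 and 10.34 in the control libraries, 10.42, 10.42 and 10.44 with sg3 and 10.60, 10.50 and 10.67 with sg9, with each guide library above both controls and 0.23 (SE 0.10, limma adjusted p = 0.0672). It passed the threshold with each experiment fitted alone (adjusted p = 0.0357), with array weights (0.0304), without sg6 library 2 (0.0255) or 3 (0.0326) and without the 3 set-aside libraries (0.0187). With sg9 alone KEAP1 was called higher, which missed the threshold in 4 of 26 alternatives. SQSTM1, the autophagy receptor that binds KEAP1, was not called with the HIF2a guides (0.09, limma adjusted p = 0.275) or the USP37 guides (0.14, limma adjusted p = 0.113) as a mean. By guide, SQSTM1 was called higher with sg9 (0.34, limma adjusted p = 0.00112), which held in the 26 alternatives, and with sg6 (0.20, limma adjusted p = 0.0349), which missed the threshold in 9 of them.

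Of the glutathione genes, GCLM fell with the HIF2a guides, and GSS rose and GSR fell with the USP37 guides. GCLM, the modifier subunit of the ligase that starts glutathione synthesis, was at 10.82, 10.70 and 10.68 in the control libraries, 10.54, 10.33 and 10.43 with sg4 and 10.46, 10.42 and 10.39 with sg6. Every guide library lay below the controls, and it fell by 0.30 (SE 0.08, limma adjusted p = 0.00681), which failed the threshold when control library 1 was left out (adjusted p = 0.0545). In the USP37 experiment it was 10.44 and 10.40 in the control libraries, 10.40, 10.72 and 10.55 with sg3 and 10.30, 10.39 and 10.57 with sg9, with overlap between groups and 0.07 (SE 0.09, limma adjusted p = 0.583). USP37_sgscr was below HIF2a_sgscr by 0.31 (limma adjusted p = 0.0239), and its libraries lay within the range of the HIF2a guide libraries. The catalytic subunit GCLC was not called in either mean (-0.09 and 0.06, limma adjusted p = 0.386 and 0.606). It was called lower with sg4 alone, which missed the threshold in 9 of 26 alternatives.

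GSR, which regenerates reduced glutathione, fell with the USP37 guides by 0.42 (SE 0.10, limma adjusted p = 0.00256), which missed the threshold without control library 3 (adjusted p = 0.103). The USP37 control was higher than the HIF2a control by 0.51 (limma adjusted p = 0.00155). GSS, which completes glutathione synthesis, rose by 0.26 (SE 0.10, limma adjusted p = 0.0332). It was not called with both USP37 guides separately, the group means being 10.38 in the control, 10.55 with sg3 and 10.74 with sg9. The GSS call was lost without either control library (adjusted p = 0.117 and 0.175), sg3 library 1 (0.0649) or sg9 library 3 (0.0574), and with the replicate number as a block (0.0605). Neither GSS (-0.07) nor GSR (0.19) was called with the HIF2a guides (limma adjusted p = 0.556 and 0.116).

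Thioredoxin moved in opposite directions in the experiments. TXN, the small protein that reduces disulfides, was at 12.21, 11.89 and 12.25 in the control libraries, 11.78, 11.81 and 11.69 with sg4 and 11.54, 11.81 and 11.15 with sg6. All guide libraries were below the controls, the lowest being sg6 library 3, and TXN fell by 0.49 (SE 0.11, limma adjusted p = 0.00226). In the USP37 experiment it was 12.15 and 12.48 in the control libraries, 12.78, 12.81 and 12.77 with sg3 and 12.97, 13.07 and 13.21 with sg9. All guide libraries were above both controls, and it rose by 0.62 (SE 0.13, limma adjusted p = 0.000691). The effects differed by 1.11 (limma adjusted p = 4.05e-05), and no difference between the controls was called (0.20, limma adjusted p = 0.298).

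SRXN1, the sulfiredoxin that rescues overoxidised peroxiredoxins, had the same directions as TXN, at -0.31 (SE 0.08, limma adjusted p = 0.00493) in the HIF2a experiment and 0.27 (SE 0.09, limma adjusted p = 0.0193) in the USP37 experiment. The first missed the threshold without control library 3 (adjusted p = 0.0518) and the second without control library 2 or 3 (adjusted p = 0.125 and 0.0859). Unlike TXN, SRXN1 was not called with both guides separately in either experiment. Its group means were 9.87 in the HIF2a control, 9.46 with sg4 and 9.67 with sg6. In the USP37 experiment they were 9.69 in the control, 9.87 with sg3 and 10.06 with sg9. The peroxiredoxin PRDX1 rose with the USP37 guides by 0.46 (SE 0.12, limma adjusted p = 0.00406), which missed the threshold without control library 2 (adjusted p = 0.0531), and was not called with the HIF2a guides (-0.05, limma adjusted p = 0.774). The PRDX1 rise was not called with both USP37 guides separately. Its group means there were 13.26 in the control, 13.49 with sg3 and 13.94 with sg9. PRDX6, which also reduces phospholipid peroxides, was at -0.13 with the HIF2a guides (limma adjusted p = 0.267) and at 0.25 with the USP37 guides, just short of the threshold (limma adjusted p = 0.0502), and it passed in 9 alternatives (0.0164 without the 3 set-aside libraries).

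TXNRD1, the selenoenzyme that reduces thioredoxin, was at 12.58, 12.55 and 12.55 in the control libraries, 12.33, 12.22 and 12.25 with sg4 and 12.72, 12.56 and 12.59 with sg6. The sg4 libraries were all below the controls, and the sg6 libraries were level with them or above. The mean of the guides was not called (-0.12, SE 0.07, limma adjusted p = 0.189), while sg4 alone was (-0.30, limma adjusted p = 0.00664). In the USP37 experiment it was 12.42 and 12.44 in the control libraries, 12.26, 12.40 and 12.33 with sg3 and 12.32, 12.50 and 12.48 with sg9, with overlap and -0.05 (SE 0.08, limma adjusted p = 0.649).

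GSTP1 changed more than any other member in any comparison with a control. It encodes the pi class glutathione transferase, which conjugates glutathione to reactive compounds. Its value was 10.84, 10.86 and 10.87 in the control libraries, 8.14, 8.07 and 7.86 with sg4 and 8.01, 8.25 and 7.86 with sg6. The guide libraries lay well below the controls with no overlap, and GSTP1 fell by 2.83 on the log2 scale, or 7.09-fold lower (SE 0.11, limma adjusted p = 1.82e-14). The guides gave nearly the same value, -2.84 for sg4 and -2.82 for sg6, and their difference was 0.02 (SE 0.12). In the USP37 experiment GSTP1 was 10.32 and 10.51 in the control libraries, 10.79, 10.31 and 10.58 with sg3 and 10.82, 10.51 and 10.64 with sg9, with overlap and 0.19 (SE 0.12, limma adjusted p = 0.21). The USP37 control was lower than the HIF2a control by 0.44 (limma adjusted p = 0.0142), in the direction of the HIF2a effect but much smaller. The effects differed by 3.02 (limma adjusted p = 1.22e-11).

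Catalase and the microsomal transferase MGST1 rose with the HIF2a guides and fell with the USP37 guides. CAT, which breaks down hydrogen peroxide, was at 9.73, 9.72 and 9.48 in the control libraries, 10.30, 10.28 and 10.22 with sg4 and 10.18, 10.30 and 10.34 with sg6. All guide libraries were above the controls, and CAT rose by 0.63 (SE 0.09, limma adjusted p = 7.01e-06). Across the USP37 libraries it was 10.39 and 10.29 in the control libraries, 9.61, 9.27 and 9.42 with sg3 and 9.90, 9.70 and 9.91 with sg9, all guide libraries below both controls, with a fall of 0.71 (SE 0.10, limma adjusted p = 1.18e-05). MGST1, a membrane enzyme that conjugates glutathione and reduces lipid peroxides, was at 11.38, 11.09 and 11.44 in the control libraries, 11.94, 12.11 and 11.92 with sg4 and 11.80, 11.98 and 11.44 with sg6. The third sg6 library was level with the highest control, and MGST1 rose by 0.56 (SE 0.10, limma adjusted p = 0.000257). Among the libraries of the USP37 experiment it was 12.20 and 12.33 in the control libraries, 11.87, 11.65 and 11.71 with sg3 and 11.89, 11.63 and 11.81 with sg9, without overlap, and fell by 0.51 (SE 0.12, limma adjusted p = 0.00183). In both genes the controls differed: USP37_sgscr was higher than HIF2a_sgscr by 0.70 for CAT and 0.96 for MGST1 (limma adjusted p = 5.22e-05 and 1.22e-05). The lower of the USP37 controls for CAT lay within the HIF2a guide libraries, and for MGST1 the USP37 guide libraries lay above the HIF2a controls.

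GPX4, the selenoenzyme that reduces phospholipid hydroperoxides and so restrains ferroptosis, was at 11.80, 11.40 and 11.86 in the control libraries, 11.75, 11.60 and 11.47 with sg4 and 11.49, 11.93 and 11.36 with sg6. The groups overlapped, with -0.09 (SE 0.12, limma adjusted p = 0.625). It was called lower only without the 3 set-aside libraries among the alternatives run (-0.28, adjusted p = 0.0418). Across the USP37 libraries it was 12.60 and 12.65 in the control libraries, 12.15, 12.01 and 11.96 with sg3 and 12.47, 12.06 and 12.30 with sg9. All guide libraries lay below both controls, and GPX4 fell by 0.46 (SE 0.14, limma adjusted p = 0.00978), which missed the threshold without control library 2 or 3 (adjusted p = 0.0569 and 0.0849). The USP37 control stood above every library of the HIF2a experiment, higher than HIF2a_sgscr by 0.93 (limma adjusted p = 7.54e-05), and no difference between the effects was called (-0.37, limma adjusted p = 0.111). GPX1, which reduces hydrogen peroxide, rose with the USP37 guides by 0.48 (SE 0.12, limma adjusted p = 0.0027), which missed the threshold without control library 2 (adjusted p = 0.0631), and was at -0.10 with the HIF2a guides (limma adjusted p = 0.517). The GPX1 rise was not called with both USP37 guides separately, the group means being 12.06 in the control, 12.31 with sg3 and 12.77 with sg9. USP37_sgscr exceeded HIF2a_sgscr at GPX1 by 0.76 (limma adjusted p = 0.000156). GPX2 was near the floor in all groups, from 5.09 to 5.66, and was outside the 12484 genes fitted. With no filter neither mean was called, at 0.12 and 0.22 (adjusted p = 0.395 and 0.109).

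**Figure D2:**
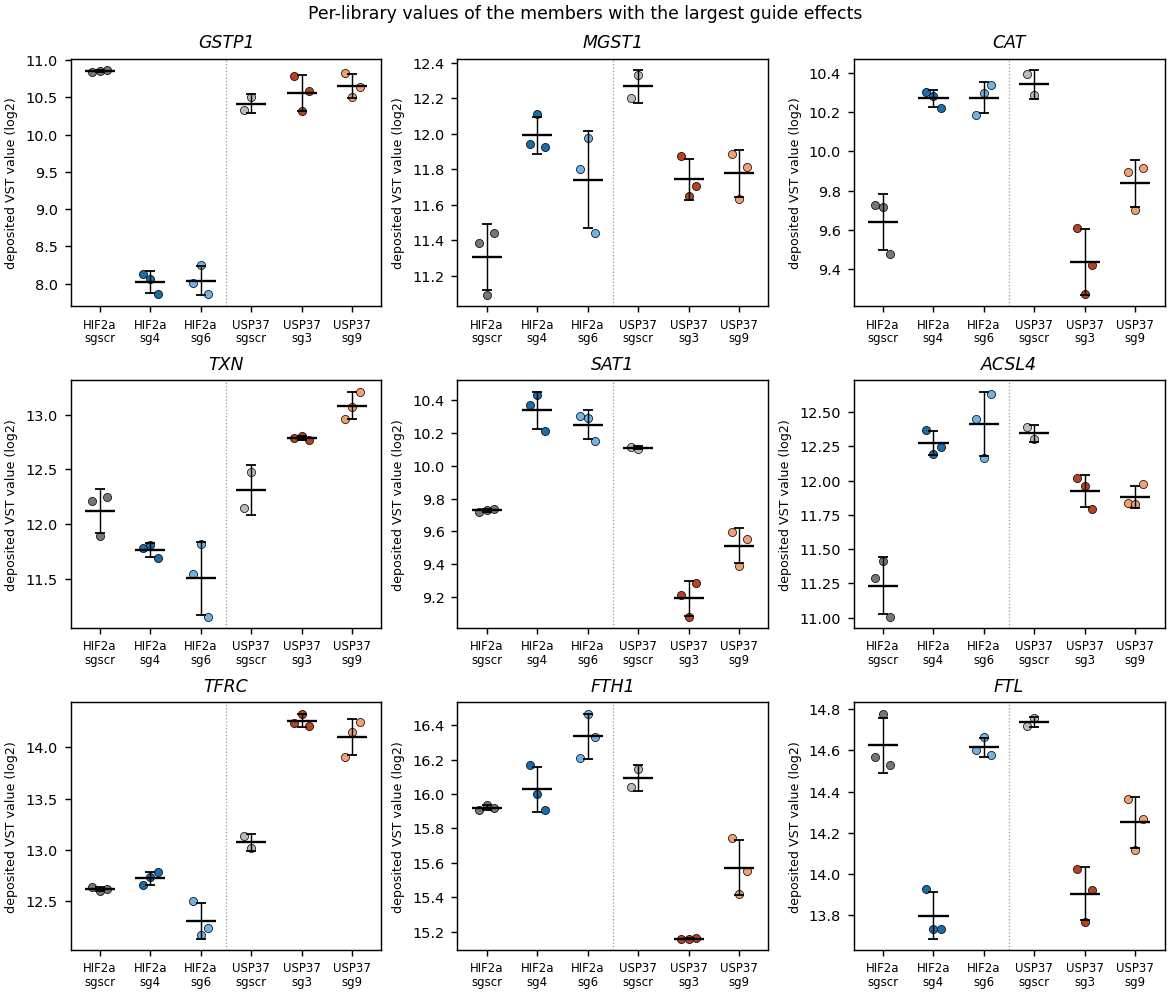
Deposited log2 value in each library (points) for 9 members, with the mean of each group (bar) and its SD (whisker), HIF2a experiment left of the dotted line and USP37 experiment right of it. GSTP1 drops in both HIF2a guide groups alone, TFRC is high in both USP37 guide groups, and for CAT, SAT1, MGST1 and ACSL4 the control of the USP37 experiment stands above that of the HIF2a experiment.

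Of the 4 enzymes of NADPH supply and the pentose phosphate pathway, none was called in the mean of the HIF2a guides, while PGD rose and TKT fell with the USP37 guides. PGD, of the oxidative pentose phosphate pathway, rose by 0.33 (SE 0.08, limma adjusted p = 0.00279), which missed the threshold without control library 3 (adjusted p = 0.0794). Its level in USP37_sgscr was below that in HIF2a_sgscr by 0.36 (limma adjusted p = 0.0039). TKT, the transketolase of the non-oxidative branch, fell by 0.41 (SE 0.09, limma adjusted p = 0.000783), with no difference called between the controls (0.08, limma adjusted p = 0.559). With the HIF2a guides PGD was at 0.08 and TKT at -0.14 (limma adjusted p = 0.429 and 0.185). By guide, TKT was called lower with sg4 (-0.36, limma adjusted p = 0.00384) and PGD higher with sg6 (0.28, limma adjusted p = 0.0124). The TKT call missed the threshold after chromosome medians were removed, and the PGD call without control library 1 or the 3 set-aside libraries. TALDO1, the partner enzyme of TKT, was not called in either experiment (0.10 and -0.06, limma adjusted p = 0.356 and 0.592).

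ME1, the cytosolic malic enzyme, separated the HIF2a guides. Its value was 10.79, 10.85 and 10.64 in the control libraries, 10.49, 10.28 and 10.34 with sg4 and 11.28, 11.25 and 11.36 with sg6. The sg4 libraries were all below the controls and the sg6 libraries all above. sg4 lowered it (-0.39, SE 0.09, limma adjusted p = 0.002), sg6 raised it (0.54, SE 0.09, limma adjusted p = 8.26e-05), and the mean of the guides was 0.07 (limma adjusted p = 0.528). The sg6 guide was higher than sg4 by 0.93 (SE 0.09, limma adjusted p = 1.45e-06). With the USP37 guides no change of ME1 was called (0.00, SE 0.09, limma adjusted p = 0.997).

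HMOX1, which breaks haem down to biliverdin, iron and carbon monoxide, rose in both experiments. It was at 9.73, 9.86 and 9.84 in the control libraries, 10.23, 10.35 and 10.18 with sg4 and 10.13, 10.38 and 10.33 with sg6. Each guide library lay above the controls, and HMOX1 rose by 0.46 (SE 0.08, limma adjusted p = 0.000105). Among the libraries of the USP37 experiment it was 9.69 and 9.70 in the control libraries, 9.92, 9.76 and 10.02 with sg3 and 10.40, 10.44 and 10.42 with sg9. Each guide library again lay above both controls, with the sg9 libraries highest, and it rose by 0.47 (SE 0.09, limma adjusted p = 0.00034). The rise was not called with sg3 alone, the group means being 9.69 in the control, 9.90 with sg3 and 10.42 with sg9. No difference was called between the effects (0.01, SE 0.12, limma adjusted p = 0.973) or between the controls (-0.11, limma adjusted p = 0.39). BLVRB, which reduces biliverdin, fell with the HIF2a guides by 0.28 (SE 0.08, limma adjusted p = 0.0153), which missed the threshold without control library 1 or 3 (adjusted p = 0.0777 and 0.0917), and was at -0.08 with the USP37 guides (limma adjusted p = 0.505). BLVRB was not called with both HIF2a guides separately, the group means being 9.53 in the control, 9.19 with sg4 and 9.30 with sg6. It was higher in USP37_sgscr than in HIF2a_sgscr by 0.41 (limma adjusted p = 0.0055).

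NQO1, the quinone reductase often used as a readout of NRF2, was not called in the mean of either pair of guides. It was at 11.74, 11.65 and 11.73 in the control libraries, 11.49, 11.45 and 11.37 with sg4 and 11.60, 11.79 and 11.49 with sg6, where sg4 was below the controls and sg6 spread around them (-0.17, SE 0.08, limma adjusted p = 0.11). It was called lower with array weights (adjusted p = 0.0477), without sg6 library 2 (0.0342) and after chromosome medians were removed (-0.30, adjusted p = 0.00907). Across the USP37 libraries it was 11.75 and 11.71 in the control libraries, 11.77, 11.71 and 11.72 with sg3 and 12.01, 11.995 and 12.33 with sg9, with sg3 level with the controls and sg9 above them (0.19, SE 0.09, limma adjusted p = 0.103). sg9 alone raised it (0.38, limma adjusted p = 0.00511). In the HIF2a experiment NQO1 was called lower with sg4 alone, which missed the threshold in 7 of 26 alternatives.

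OSGIN1, an oxidative stress responsive growth inhibitor, was called higher with the HIF2a guides at 0.31 (SE 0.11, limma adjusted p = 0.0339), which failed the threshold in 9 of 26 alternatives. These were leaving out sg4 library 1 or 3, sg6 library 2 or control library 1 or 3 (adjusted p from 0.0623 to 0.19), no filter (0.0574), the replicate block (0.0635), removal of chromosome medians (0.211) and the fit without the 3 set-aside libraries (0.154). OSGIN1 was not called with both HIF2a guides separately, the group means being 7.16 in the control, 7.30 with sg4 and 7.65 with sg6. With the USP37 guides it was at -0.02 (limma adjusted p = 0.905). The carbonyl reductases CBR1 (0.28 and -0.07) and CBR3 (0.00 and 0.22) were not called in the HIF2a or USP37 mean, and neither were the efflux pumps ABCC1 (0.18 and 0.20) and ABCC2 (-0.29 and -0.21), with limma adjusted p-values from 0.0649 to 0.992. Between the controls CBR1 (0.74) and CBR3 (0.52) were called higher and ABCC1 (-0.43) lower in USP37_sgscr (limma adjusted p = 0.000386, 0.00711 and 0.00724). With the HIF2a guides CBR1 passed without sg6 library 3 (0.36, adjusted p = 0.00477), without control library 3 (0.0384) and with libraries centred on their medians (0.0496). ABCC1 passed without control library 2 (0.29, adjusted p = 0.0267), with array weights (0.012) and without the 3 set-aside libraries (0.0312).

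**Figure D3:**
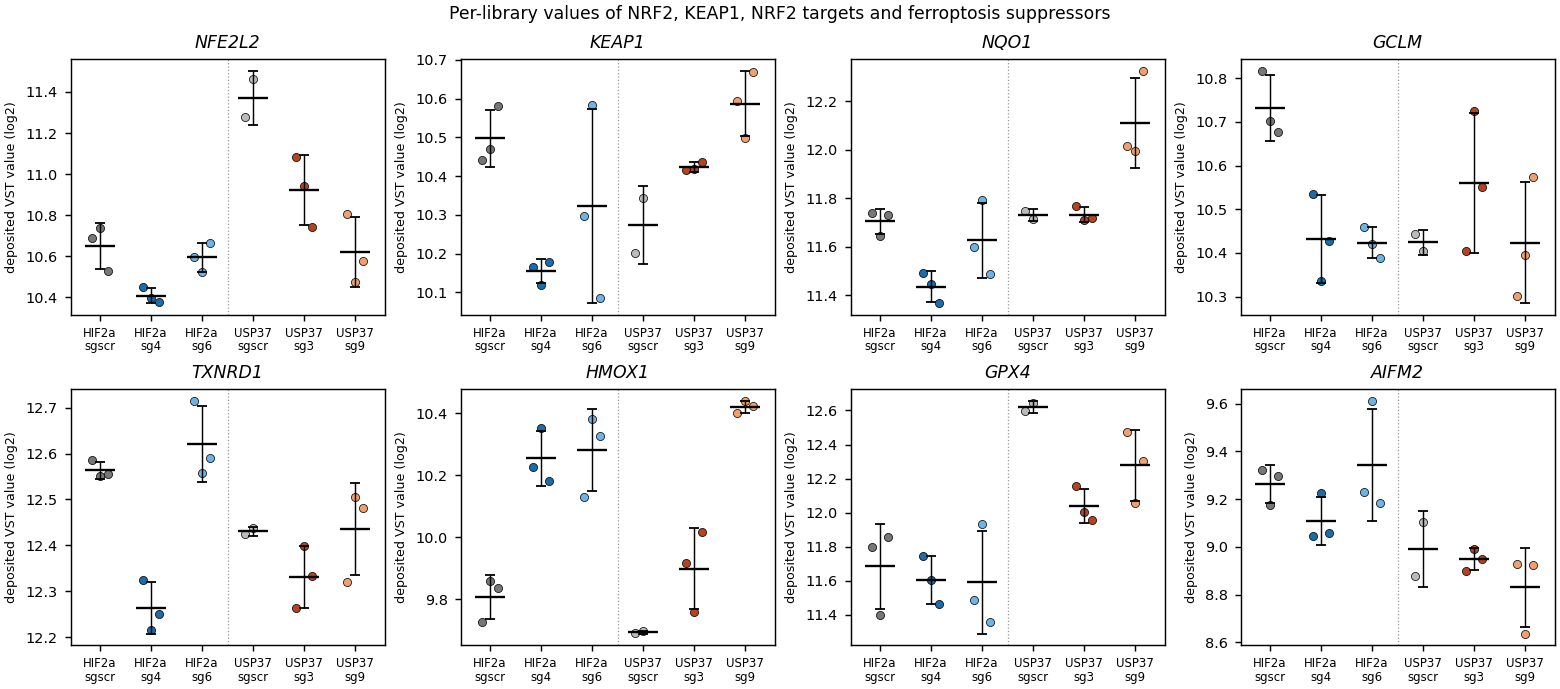
Deposited log2 value in each library (points) for NFE2L2, KEAP1, 4 NRF2 target genes, GPX4 and AIFM2, with the mean (bar) and SD (whisker) of each group. HMOX1 lies above the control in every guide group mean, while NFE2L2 and GPX4 are highest in the USP37 control.

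With the USP37 guides the receptor for iron uptake rose and both ferritin subunits fell. Of the 5 tested iron members, 1 rose and 3 fell with the USP37 guides, and 2 rose and 1 fell with the HIF2a guides. Over all tested genes 22.4% rose and 21.9% fell with the USP37 guides, and 16.1% and 14.5% with the HIF2a guides. So few members give no share to set against these. TFRC was at 13.13 and 13.02 in the control libraries, 14.23, 14.32 and 14.21 with sg3 and 13.90, 14.14 and 14.24 with sg9. Each guide library lay above both controls, and TFRC rose by 1.10 on the log2 scale, or 2.14-fold (SE 0.10, limma adjusted p = 2.32e-08). In the HIF2a experiment TFRC was 12.64, 12.60 and 12.62 in the control libraries, 12.66, 12.74 and 12.78 with sg4 and 12.50, 12.18 and 12.25 with sg6, with sg4 above the controls, sg6 below them and -0.10 (SE 0.08, limma adjusted p = 0.372) for the mean. The median difference of the 695 tested genes of chromosome 3, where TFRC lies, was -0.22 in that comparison. The effects differed by 1.20 (limma adjusted p = 2.72e-07), and USP37_sgscr was above HIF2a_sgscr by 0.45 (limma adjusted p = 0.00202).

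FTH1, the ferritin heavy subunit that oxidises iron for storage, was at 16.04 and 16.15 in the control libraries, 15.16, 15.16 and 15.16 with sg3 and 15.74, 15.42 and 15.55 with sg9. All guide libraries lay below both controls, the sg3 libraries lowest, and FTH1 fell by 0.73 (SE 0.10, limma adjusted p = 8.03e-06). The light subunit FTL was at 14.72 and 14.76 in the control libraries, 14.02, 13.77 and 13.92 with sg3 and 14.36, 14.12 and 14.27 with sg9, also without overlap, and fell by 0.66 (SE 0.10, limma adjusted p = 1.49e-05). Between the controls no difference was called at FTH1 (0.17, limma adjusted p = 0.227) or FTL (0.11, limma adjusted p = 0.42). NCOA4, the receptor that carries ferritin to lysosomes, was at -0.00 with the HIF2a guides (limma adjusted p = 0.969). With the USP37 guides it fell by 0.25 (SE 0.08, limma adjusted p = 0.0199), which missed the threshold without control library 2 or 3 (adjusted p = 0.16 and 0.0726).

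In the HIF2a experiment the ferritin subunits parted. FTH1 was at 15.91, 15.93 and 15.92 in the control libraries, 16.17, 16.003 and 15.91 with sg4 and 16.21, 16.47 and 16.33 with sg6. The sg6 libraries were above the controls and the sg4 libraries overlapped them. FTH1 was called higher in the mean (0.26, SE 0.09, limma adjusted p = 0.0253), which failed the threshold without control library 1, 2 or 3 (adjusted p = 0.087, 0.052 and 0.0688), sg4 library 1 (0.0557) or the 3 set-aside libraries (0.156), with no filter (0.0995) and after chromosome medians were removed (0.113). FTL was at 14.57, 14.78 and 14.53 in the control libraries, 13.93, 13.73 and 13.73 with sg4 and 14.60, 14.67 and 14.58 with sg6. The sg4 libraries lay below the controls and the sg6 libraries among them. The mean of the guides fell by 0.42 (SE 0.08, limma adjusted p = 0.000491), with sg4 at -0.83 (limma adjusted p = 8.24e-07) and sg6 at -0.01 (limma adjusted p = 0.951). The release 29 GENCODE annotation lists 25 pseudogenes named after FTH1, 16 after FTL, 7 after TXN, 3 after NCOA4, 2 after GPX1 and 1 each after PRDX1, GSTP1, PGD and SQSTM1. Reads of these genes may be shared with near-identical copies, so their values are uncertain to that extent.

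SLC11A2, the divalent metal transporter DMT1 and a known HIF2a target in intestine, rose with the HIF2a guides by 0.45 (SE 0.08, limma adjusted p = 0.000347), all 6 guide libraries being above the controls, and was not called with the USP37 guides (-0.04, limma adjusted p = 0.795). SLC40A1, the only known iron exporter of animal cells, was below the filter, so it has no test in the fit of the 12484 genes. It was at 6.07, 6.23 and 6.01 in the control libraries, 5.21, 5.11 and 5.12 with sg4 and 5.21, 5.11 and 5.12 with sg6. The guides held the same value at each replicate number, near the table's floor of 5.14, while the controls were about 1 log2 unit above it. Among the libraries of the USP37 experiment it was 5.91 and 5.85 in the control libraries, 5.57, 5.55 and 5.36 with sg3 and 5.45, 5.11 and 5.55 with sg9, again with every guide library below both controls. In the alternative with no filter it was called lower in both experiments (-0.96, adjusted p = 4.13e-07, and -0.45, adjusted p = 0.00355). With the HIF2a guides at the floor, the size of the change could not be measured, and these p-values rest on values that carry little information.

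Of the ferroptosis regulators, ACSL4 and SAT1 rose with the HIF2a guides and fell with the USP37 guides. ACSL4, which activates arachidonic acid for membrane lipids, was at 11.29, 11.41 and 11.01 in the control libraries, 12.37, 12.20 and 12.25 with sg4 and 12.45, 12.17 and 12.63 with sg6. Each guide library lay above the controls, and ACSL4 rose by 1.11, or 2.16-fold (SE 0.10, limma adjusted p = 1e-08). Across the USP37 libraries it was 12.39 and 12.30 in the control libraries, 12.02, 11.96 and 11.79 with sg3 and 11.84, 11.83 and 11.97 with sg9, with each guide library below both controls. It fell by 0.44 (SE 0.11, limma adjusted p = 0.00313), which missed the threshold without control library 2 (adjusted p = 0.0548). USP37_sgscr was higher than HIF2a_sgscr by 1.11 (limma adjusted p = 1.03e-06), a difference as large as the HIF2a effect, and every USP37 guide library still lay above the HIF2a controls.

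SAT1, the spermidine acetyltransferase that promotes lipid peroxidation downstream of p53, was at 9.72, 9.73 and 9.73 in the control libraries, 10.37, 10.43 and 10.21 with sg4 and 10.31, 10.29 and 10.15 with sg6. All guide libraries were above the controls, and it rose by 0.57 (SE 0.08, limma adjusted p = 7.53e-06). Among the libraries of the USP37 experiment it was 10.12 and 10.10 in the control libraries, 9.21, 9.08 and 9.28 with sg3 and 9.59, 9.39 and 9.56 with sg9, all guide libraries below both controls, and it fell by 0.76 (SE 0.09, limma adjusted p = 1.47e-06). These guide libraries also lay below the HIF2a controls, although USP37_sgscr was the higher control by 0.38 (limma adjusted p = 0.00465). The difference between the effects was -1.32 (limma adjusted p = 2.73e-08).

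LPCAT3, which inserts polyunsaturated chains into phospholipids, fell with the USP37 guides by 0.41 (SE 0.10, limma adjusted p = 0.00204), which missed the threshold without control library 2 (adjusted p = 0.0914). The fall was not called with both USP37 guides separately, the group means being 10.17 in the control, 9.93 with sg3 and 9.59 with sg9. USP37_sgscr exceeded HIF2a_sgscr at LPCAT3 by 0.31 (limma adjusted p = 0.0282). With the HIF2a guides it was at 0.21 (limma adjusted p = 0.0667), and it was called higher without sg4 library 1 (adjusted p = 0.0455) or sg9 library 1 (0.0435) and after chromosome medians were removed (0.00895). AIFM2, the ubiquinone reductase that suppresses ferroptosis in parallel to GPX4, was at 9.32, 9.17 and 9.30 in the control libraries, 9.05, 9.22 and 9.06 with sg4 and 9.23, 9.61 and 9.18 with sg6. Across the USP37 libraries it was 8.88 and 9.10 in the control libraries, 8.90, 8.99 and 8.95 with sg3 and 8.93, 8.64 and 8.92 with sg9. The groups overlapped in both experiments, and neither difference was called (-0.04 and -0.10, SE 0.10 and 0.12, limma adjusted p = 0.809 and 0.498).

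The guides to one target can be compared without the control. sg6 and sg4 differed at 8 of 38 members (21.1%, against 9.22% of all genes), 7 higher and 1 lower with sg6 (4.86% and 4.36% of all genes). Besides ME1, the largest difference was FTL, higher with sg6 by 0.82 (SE 0.10, limma adjusted p = 1.21e-05). TKT (0.44), PGD (0.41), TXNRD1 (0.36), GCLC (0.32) and NCOA4 (0.27) were also higher with sg6, and TFRC (-0.42) was lower (limma adjusted p from 1.45e-06 to 0.0458 over the 8). Without the 3 set-aside libraries, which compares 1 sg6 library with 3 of sg4, 4 of the 8 were called, and GCLC, NCOA4, PGD and TFRC missed the threshold (adjusted p = 0.269, 0.301, 0.0997 and 0.376). GCLC also missed it without sg4 library 2 or 3 or sg6 library 3 (adjusted p = 0.102, 0.0597 and 0.0564), and NCOA4 missed it in 18 of 26 alternatives, the replicate block among them (0.0853, up to 0.301).

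The USP37 guides differed at 15 of 38 members (39.5%, against 30.8% of all genes), 12 higher and 3 lower with sg9 (16.6% and 14.2% of all genes). BLVRB (0.64, SE 0.10, limma adjusted p = 0.000101), CBR1 (0.55, SE 0.13, limma adjusted p = 0.00338) and HMOX1 (0.52, SE 0.09, limma adjusted p = 0.000307) differed most in that direction. PRDX1 and GPX1 were higher by 0.46 and 0.46, SQSTM1 by 0.41, NQO1 by 0.38 and ME1 by 0.25. FTH1 (0.41), CAT (0.40), FTL (0.35) and SAT1 (0.32) were also higher with sg9, where sg3 was the farther below the control. ABCC1 was lower with sg9 (-0.65, SE 0.11, limma adjusted p = 0.0002), as were LPCAT3 (-0.34) and NFE2L2 (-0.30). FTL and SAT1 missed the threshold without sg3 library 2 (adjusted p = 0.0637 and 0.0598), and LPCAT3 without sg9 library 2 (0.0768). NFE2L2 missed it without sg3 library 1 (0.145) or 2 (0.0758) or sg9 library 2 (0.132) or 3 (0.084), and ME1 in 9 alternatives (up to 0.176, without sg9 library 3). BLVRB stood at -0.41 with sg3 and 0.24 with sg9, and ABCC1 at 0.53 and -0.12. Of these 4 values the 2 with sg3 were called and the 2 with sg9 were not.

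**Figure D4:**
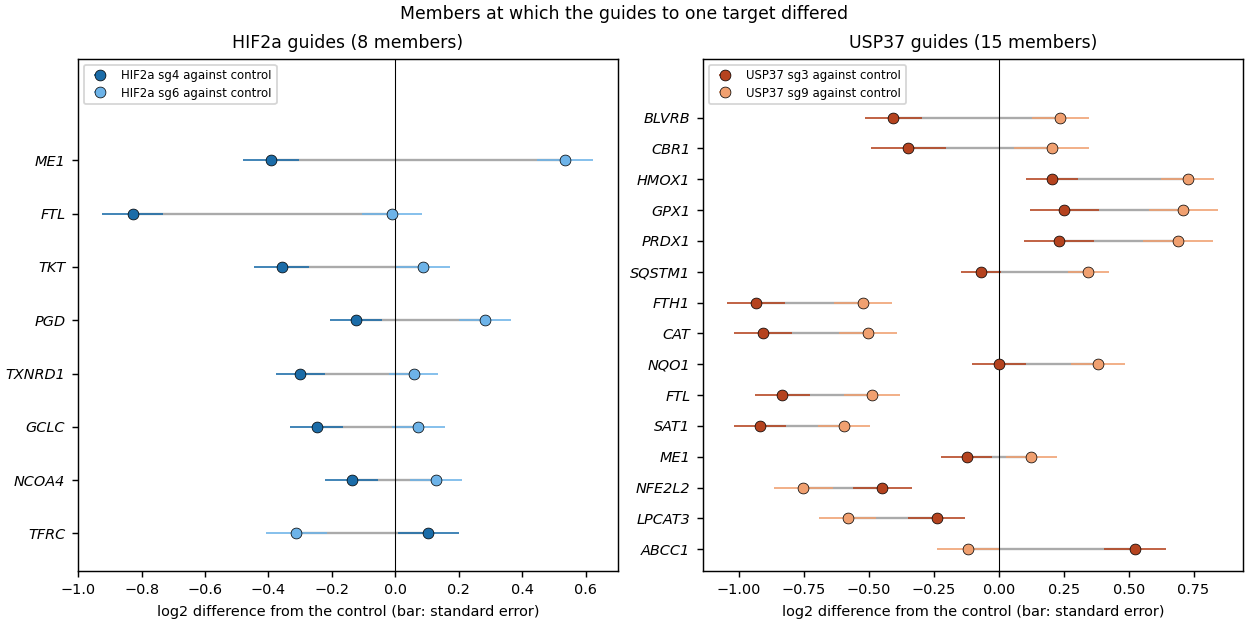
Log2 difference of each guide from its control, with its standard error, for the members at which the guides to one target differed: 8 for HIF2a (left) and 15 for USP37 (right), ordered by the difference. ME1 and FTL are the widest pairs for HIF2a, and BLVRB, CBR1, ABCC1, SQSTM1 and ME1 change sign between the USP37 guides.

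Genes of the same systems beyond the members, in a list of 112 of which 95 were tested, gave 29 higher and 8 lower with the HIF2a guides. That is 38.9% called, against 30.6% of all tested genes (16.1% higher and 14.5% lower). With the USP37 guides 20 were higher and 27 lower, or 49.5% against 44.3% (22.4% higher and 21.9% lower). Their medians were 0.09 and -0.06, against -0.0045 and 0.0060 over all genes. Among the 46 tested redox genes, 16 rose and 3 fell with the HIF2a guides (41.3%) and 11 rose and 12 fell with the USP37 guides (50%). Among 23 iron genes the counts were 8 and 1 (39.1%), then 2 and 8 (43.5%), and among 26 ferroptosis regulators 5 and 4 (34.6%), then 7 and 7 (53.8%), to be read against the same 30.6% and 44.3%.

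Those that changed by at least 1 log2 unit are named. LCN2, which binds siderophore iron, rose by 1.97 with the HIF2a guides and fell by 2.47 with the USP37 guides, and the controls differed by 1.97. Ceruloplasmin, CP, a ferroxidase, fell in both (-1.52 and -2.09), and no control difference was called (0.42, limma adjusted p = 0.0764). TXNIP, the inhibitor of thioredoxin, also fell in both (-1.25 and -1.49), with USP37_sgscr the higher control by 0.66. The aldo-keto reductase AKR1B10 rose with the HIF2a guides (1.64) and fell with the USP37 guides (-1.89), with controls that differed by 0.58.

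SLC48A1, a haem transporter (1.41), and FLVCR2 (1.02) rose with the HIF2a guides, and the plasma glutathione peroxidase GPX3 fell (-1.04). The controls differed by -0.65, 0.87 and -1.17, in that order. In the USP37 experiment SLC48A1 had group means of 8.02 in the control, 8.74 with sg3 and 8.93 with sg9. In the same order FLVCR2 had 6.75, 6.89 and 6.87, and GPX3 had 5.97, 6.57 and 6.33. GGT1, which degrades extracellular glutathione (-1.38), the lipid droplet protein HILPDA (-1.29) and the mitochondrial iron importer SLC25A37 (-1.05) fell with the USP37 guides, where the controls differed by 0.85, 1.18 and -0.27. In the HIF2a experiment GGT1 had group means of 10.70 in the control, 10.98 with sg4 and 11.18 with sg6. In the same order HILPDA had 8.90, 8.16 and 7.88, and SLC25A37 had 10.40, 10.54 and 9.92. AKR1C1 (1.91 with the HIF2a guides) and AKR1C3 (-1.66 with the USP37 guides) have close paralogs, so their reads may be shared, and their controls differed by 0.74 and 1.05. In the USP37 experiment AKR1C1 had group means of 6.78 in the control, 6.20 with sg3 and 6.25 with sg9. In the HIF2a experiment AKR1C3 had 8.51 in the control, 9.09 with sg4 and 9.69 with sg6. The limma adjusted p-values of these 12 genes were 8.36e-06 or lower in each guide comparison for which a difference of at least 1 log2 unit is given.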

How the data were processed

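RNA-seq libraries of 17 samples were analysed (polyadenylated RNA, paired reads of 150 bases). The authors deposited 1 table of variance-stabilised, batch-corrected values on a log2 scale, per the file headers and the file's name. Names in the submitters' processing notes are cutadapt, STAR 2.5.2b, Salmon, DESeq2 and hg19, without roles. No source used here states the annotation, what the batches were or how they were corrected. Means over libraries numbered 1, 2 and 3 agreed to within 6.4e-14 for every gene, so a term for that number had been removed. USP37_sgscr has no library 1, so the means made equal were taken over unlike sets of groups. This can shift values by part of the difference between USP37_sgscr and the other groups, and the main fit does not allow for it. Depth per library is unknown, since the table holds no counts.

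A gene was tested when its mean exceeded the 1st percentile of gene means (5.14) by 1 log2 unit or more. The means of 6 groups were fitted over the whole table with limma 3.58.1 in R 4.3.3 (empirical Bayes with a mean-variance trend). The fit has 11 residual degrees of freedom and ignores the removed term, so its p-values are somewhat too small. With the replicate block it has 9. P-values were adjusted by Benjamini-Hochberg over all tested genes within each comparison, and a gene was called at an adjusted p under 0.05. The fit was tested on simulated data. Library values are given for 12 defining genes, for the 6 largest effects in each experiment among members called in the same direction with each guide and, chosen after their values were seen, for SLC40A1 and ME1. Genes outside the members are named where called at 1 log2 unit or more. The members and lists were chosen with earlier results of these data known. Promoters came from RefSeq (GRCh38.p14), which gave a window for 32 of 40 members. Chromosomes came from the RefSeq gene table and pseudogene names from GENCODE release 29.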

Additional observations from a re-analysis of the deposited data

Results flagged for a closer look

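The effect of the USP37 guides differed from that of the HIF2a guides at 20 members by the limma test of the difference (adjusted p under 0.05 over all genes). Values are the USP37 effect minus the HIF2a effect on the log2 scale. Positive differences were found for GSTP1 (3.02), TFRC (1.20), TXN (1.11), SRXN1 (0.58), GPX1 (0.58), PRDX1 (0.51), KEAP1 (0.49), PRDX6 (0.38), GCLM (0.37), NQO1 (0.37) and GSS (0.34). Negative differences were found for ACSL4 (-1.55), CAT (-1.34), SAT1 (-1.32), MGST1 (-1.07), FTH1 (-0.99), LPCAT3 (-0.62), GSR (-0.62), SLC11A2 (-0.48) and NFE2L2 (-0.45).

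Of these 20, 11 held in each of the 25 alternatives run. GSS missed the threshold in 18 of them. Without library 2 of the USP37 control the test missed for KEAP1 (adjusted p = 0.0578), PRDX1 (0.0725), GPX1 (0.0549), SLC11A2 (0.0549), NQO1 (0.0676), GCLM (0.0617) and PRDX6 (0.105). Without its library 3 it missed for NFE2L2 (0.101), NQO1 (0.092), GCLM (0.0907) and PRDX6 (0.0751). Leaving out HIF2a control library 1 had that result for NQO1, GCLM and PRDX6 (adjusted p from 0.0524 to 0.0632), and leaving out its library 3 for NQO1, PRDX1 and PRDX6 (0.0506 to 0.0539). Removing chromosome medians had it for GCLM (0.0605), PRDX6 (0.0706) and GPX1 (0.0829), and the replicate block for PRDX6 (0.0511). The scrambled controls differed by test at 11 of the 20: NFE2L2, GCLM, GSR, GSTP1, MGST1, GPX1, CAT, ACSL4, LPCAT3, TFRC and SAT1. Of all tested genes 40.5% were called between the controls. The control difference is part of the test that picked the 20, so this count is not read as a result about them.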

How the results depend on the processing

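No change reversed direction while called in any alternative run. Over the alternatives, 9 of the 15 calls with the HIF2a guides, 10 of 20 with the USP37 guides, 11 of 20 for the difference between effects and 9 of 17 between the controls passed every time. Leaving out 1 library at a time gave 10 to 16 members called for the HIF2a guides, 12 to 22 for the USP37 guides, 12 to 19 for sg4, 11 to 18 for sg6, 10 to 17 for sg3, 19 to 25 for sg9, 6 to 11 for sg6 against sg4, 11 to 18 for sg9 against sg3, 12 to 21 for the difference between effects and 12 to 18 between the controls. Where 1 control library was left in the USP37 experiment, it was assumed to vary like the other groups. The iteration for array weights stopped before full convergence. Without sg6 libraries 2 and 3 and control library 2, sg6 is a single library under the same assumption. Then 8 members were called for sg6 (17 with all libraries) and 4 for sg6 against sg4 (8 with all), with fewer samples in the comparison.

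Because the deposited values had the replicate number taken out, the values cannot show whether same-numbered libraries deviated together. The correlations of their deviations from the group means ran from -0.547 to 0.222, with sg4 against sg6 at 0.107, 0.152 and 0.212, and 3 of 17 libraries correlated best with their own number. No replicate block was used in the fits reported. With the replicate number as a block, which charges for that step, the counts were 14 for the HIF2a guides, 19 for the USP37 guides, 7 for sg6 against sg4 and 18 for the difference between effects. Depth is unknown, so no limit from counting can be given, and values near the floor of 5.14, such as those of SLC40A1 and GPX2, carry the least information.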
